A study of Drosophila melanogaster with 6 samples.

Results

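The Jonah genes of Drosophila melanogaster encode digestive serine proteases. The 10 described here are the members named Jon25Bi, Jon25Bii, Jon25Biii, Jon44E, Jon65Ai, Jon65Aii, Jon65Aiii, Jon65Aiv, Jon66Ci and Jon66Cii, chosen by symbol in the array's annotation, out of 11982 genes with a probe set of their own. A probe set is the group of short probes that reports 1 transcript. Each of the 10 genes had exactly 1 probe set, and 0 probe sets were shared between Jonah genes. RNA of whole adult females was hybridised to 6 arrays, of which 3 held the mutant Calment1/4, isogenized into a background called CS10, and 3 held CanS, labelled Canton-S, a wild-type laboratory stock. Each sample pooled 30 to 35 flies raised on standard medium at 25 °C, per the labels, and the age of the adults was not given in the sources used here. The backgrounds of the groups are named differently, so the mutation and any difference in background cannot be told apart. The series concerns the role of Calment in fly lifespan and stress resistance, and the comparison is read here for the Jonah proteases.

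Serine proteases of the chymotrypsin fold are made as inactive precursors, secreted into the gut lumen, and activated by cleavage, after which a catalytic serine cuts dietary protein. In flies, enterocytes of the midgut make most of these enzymes, and the Jonah genes are one family of them beside the trypsins. Many Jonah genes lie in small clusters of related copies, and a gene's name gives its polytene band on the chromosome.

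Markers of sex were read first. The yolk protein genes Yp1, Yp2 and Yp3 averaged 13.98, 13.67 and 13.65 on the log2 scale in Calment1/4 and 14.03, 13.84 and 13.87 in CanS, while all 12 male markers measured averaged between 2.78 and 4.28 in Calment1/4 and between 2.83 and 4.42 in CanS. Array medians lay between 5.84 and 5.91. Calment1/4 replicate 1 and CanS replicate 3 stood apart from their groups. Across all 18769 probe sets tested their deviations from their group means correlated at 0.54. Gut markers averaged 0.18 above each gene's mean in Calment1/4 replicate 1, against -0.19 and -0.30 in the other Calment1/4 arrays, and 0.21 in CanS replicate 3, against 0.02 and 0.08 in the other CanS arrays. Ovary and egg markers ran the other way, at -0.14 in Calment1/4 replicate 1 and -0.46 in CanS replicate 3.

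None of the 10 Jonah genes passed an adjusted p of 0.05 in limma, where 0.464% of all probe sets did (0.197% lower and 0.266% higher in Calment1/4). All 10 mean differences were below 0, that is, lower in Calment1/4, where 49.8% of all probe sets were. With single arrays left out, 8 to 10 of them were below 0. The largest was Jon66Ci, at 51.1% of its CanS level, followed by Jon65Aii, Jon44E and the 3 genes of the 25B cluster at 80.6% to 85.5%. Jon65Aiii and Jon65Aiv, the brightest members, stood at 97.4% and 98.0%. The median difference over the 10 genes was -0.23 on the log2 scale, beside 0.0005 over all probe sets and 0.02 over the brightest 10% of them. Members were chosen with earlier results of these data known, so these counts describe the genes and have no test as a list.

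In 6 of the 10 genes every Calment1/4 array lay below every CanS array, a pattern shown by 6.27% of all probe sets, and 0 members showed the opposite split (6.36% of all). An unadjusted p under 0.05 with a lower Calment1/4 level was reached by 5 of the 10 genes, and by 3.96% of all probe sets, while 0 members had an unadjusted p under 0.05 in the other direction (3.71% of all). The lowest adjusted p among the 10 was 0.1645 (limma, Jon66Ci), and the highest unadjusted p that was still called among all probe sets was 0.000228. The probe sets that were called differed by at least 0.48 in size, so of the 10 genes Jon66Ci alone had a difference of such a size.

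**Figure D1:**
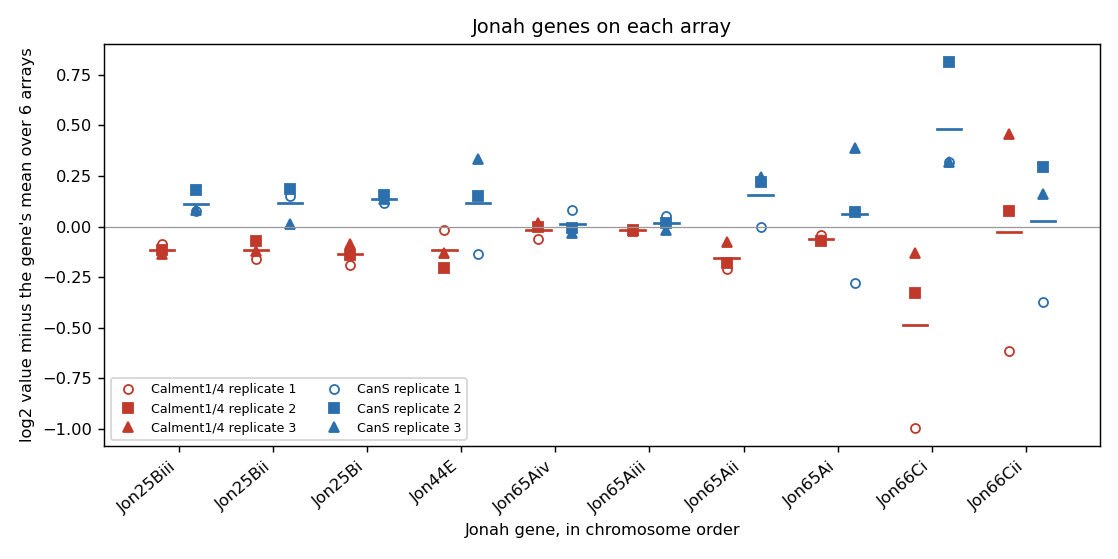
Log2 value of each Jonah gene minus that gene's mean over the 6 arrays, with genes in chromosome order along the x axis. Red points are the 3 Calment1/4 arrays and blue points the 3 CanS arrays, with a marker shape for each replicate number and a bar for each group mean. The red and blue points do not overlap in 6 genes, and the spread between arrays is widest for Jon66Ci and Jon66Cii.

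The 3 genes of the 25B cluster on chromosome arm 2L, each coding for a predicted secreted serine endopeptidase, had differences of similar size. Jon25Bi had log2 values of 12.73, 12.78 and 12.83 in Calment1/4, against 13.03, 13.07 and 13.05 in CanS. Jon25Bii had 13.13, 13.22 and 13.18 in Calment1/4, against 13.45, 13.48 and 13.31 in CanS. In both genes all Calment1/4 arrays lay below all CanS arrays. Jon25Biii was likewise split, with 13.51, 13.48 and 13.46 in Calment1/4, against 13.67, 13.78 and 13.68 in CanS. The differences were -0.27 for Jon25Bi (SE 0.07, adjusted p = 0.279 in limma), -0.23 for Jon25Bii (SE 0.08, adjusted p = 0.494 in limma) and -0.23 for Jon25Biii (SE 0.08, adjusted p = 0.446 in limma). As a share of the CanS level these are 82.7%, 85.0% and 85.5%, with 95% intervals of 73.5% to 93.1% for Jon25Bi, 74.7% to 96.9% for Jon25Bii and 75.8% to 96.4% for Jon25Biii. The SD within groups ran from 0.02 to 0.09 on the log2 scale. Leaving out any 1 array kept the 3 differences between -0.30 and -0.19. Without both arrays that stand apart they were -0.25 (Jon25Bi), -0.26 (Jon25Bii) and -0.26 (Jon25Biii).

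Jon44E, the only member on arm 2R, lies apart from the others. Its log2 values were 9.41, 9.23 and 9.30 in Calment1/4, against 9.30, 9.58 and 9.77 in CanS. The groups overlapped, since CanS replicate 1 lay among the Calment1/4 arrays. The difference was -0.23 (SE 0.12, adjusted p = 0.765 in limma), and it depended on single CanS arrays, with -0.36 without CanS replicate 1 and -0.13 without CanS replicate 3. CG8586, next to Jon44E in the RefSeq gene order, differed by -0.23 as well (SE 0.11, adjusted p = 0.725 in limma). Whether the probe sets of these genes pick up each other's transcript was not tested.

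**Figure D2:**
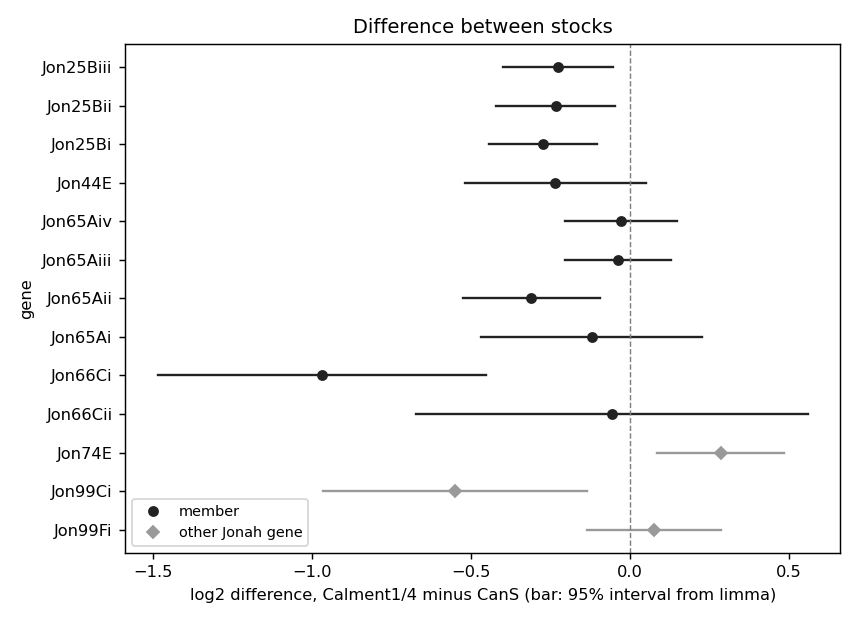
Log2 difference of each Jonah gene, Calment1/4 minus CanS, with its 95% interval from limma. Black points are the 10 members and grey diamonds the 3 other Jonah genes measured. All 10 members lie left of 0, from -0.97 for Jon66Ci to -0.03 for Jon65Aiv, while Jon74E and Jon99Fi lie right of it.

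The 4 genes of the 65A cluster on arm 3L had differences from -0.31 to -0.03. Jon65Aii had log2 values of 10.99, 11.02 and 11.12 in Calment1/4, against 11.20, 11.41 and 11.44 in CanS, with no overlap between groups. Its difference was -0.31 (SE 0.09, adjusted p = 0.348 in limma), or 80.6% of the CanS level with a 95% interval of 69.5% to 93.6%. It ranged from -0.39 to -0.26 when any 1 array was left out, and it was -0.24 without both arrays that stand apart. Its direct neighbour Jon65Ai showed another pattern. Jon65Ai was nearly level over the Calment1/4 arrays, at 11.56, 11.53 and 11.54, and spread over the CanS arrays, at 11.32, 11.68 and 11.99. The Calment1/4 values fell inside the CanS range. Its difference of -0.12 (SE 0.15, adjusted p = 0.969 in limma) was 0.04 without CanS replicate 3 and -0.29 without CanS replicate 1.

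Jon65Aiii and Jon65Aiv were the members closest to the top of the arrays' scale, 0.23 and 0.14 below the brightest probe set. Jon65Aiii had 14.21, 14.21 and 14.20 in Calment1/4, against 14.28, 14.25 and 14.21 in CanS. Jon65Aiv had 14.26, 14.32 and 14.34 in Calment1/4, against 14.40, 14.31 and 14.29 in CanS. For Jon65Aiii the highest Calment1/4 array lay just under the lowest CanS array, and for Jon65Aiv the groups overlapped. The differences were -0.04 (SE 0.07, 95% interval 86.8% to 109% of the CanS level) for Jon65Aiii and -0.03 (SE 0.08, 95% interval 86.75% to 111%) for Jon65Aiv. A probe set near the top of the scale can understate a difference, and whether these probes were saturated was not judged, since scanner files were not used here.

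The 66C pair on arm 3L held the largest difference and the widest spread. Jon66Ci had log2 values of 9.16, 9.83 and 10.03 in Calment1/4, against 10.48, 10.97 and 10.48 in CanS. All Calment1/4 arrays lay below all CanS arrays, with Calment1/4 replicate 1 the lowest. The mean was 9.67 ± 0.45 over the 3 Calment1/4 arrays and 10.64 ± 0.28 over the 3 CanS arrays (SD). The difference was -0.97 (SE 0.23, adjusted p = 0.1645 in limma), which is 51.1% of the CanS level with a 95% interval of 35.7% to 73.1%. It was -0.71 without Calment1/4 replicate 1 (adjusted p = 0.0765 in limma), -1.15 without Calment1/4 replicate 3 and -0.80 without both arrays that stand apart (adjusted p = 0.0946 in limma). With weights estimated for each array the gene passed the threshold (-0.84, adjusted p = 0.0470 in limma), the only setting tried in which a Jonah gene did.

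Jon66Cii, the gene next to it, also had its lowest value in Calment1/4 replicate 1 but did not separate the stocks. Its values were 6.33, 7.02 and 7.40 in Calment1/4, against 6.57, 7.24 and 7.11 in CanS. The groups overlapped throughout, and the difference of -0.06 (SE 0.27, adjusted p = 0.995 in limma) had a 95% interval of 62.7% to 147% of the CanS level. Leaving out Calment1/4 replicate 1 gave 0.24 and leaving out Calment1/4 replicate 3 gave -0.30, so its direction rests on single arrays. Set against each other within each array, Jon66Ci exceeded Jon66Cii by 2.84, 2.81 and 2.63 on the log2 scale in Calment1/4, and by 3.91, 3.73 and 3.37 in CanS. Those values did not overlap and their means differed by -0.91 (exact permutation test over arrays, two-sided, p = 0.1, the smallest that 3 against 3 arrays allow). This pair was compared after its values were seen. The value within 1 array depends on both probe sets, so only its difference between stocks can be read.

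Most members were bright, and 6 of the 10 had a tighter spread within groups than the median probe set. By mean level over the 6 arrays 8 of the 10 probe sets lay in the brightest 10% and 5 in the brightest 1% of all those tested, with Jon44E at percentile 86.4 and Jon66Cii at percentile 58.3. Such ranks order signal, not the amount of transcript, because probe sets differ in how well they bind. The median SD within groups was 0.09 on the log2 scale for the members, 0.11 for the brightest 10% and 0.12 for all probe sets. The members above the median of all probe sets were Jon66Ci and Jon66Cii, with pooled SDs of 0.38 and 0.46, Jon65Ai with 0.24 and Jon44E with 0.18. All 10 probe set names end in the plain suffix that Affymetrix gives to sets designed for a single transcript. Cross-hybridisation between these related genes was not tested.

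**Figure D3:**
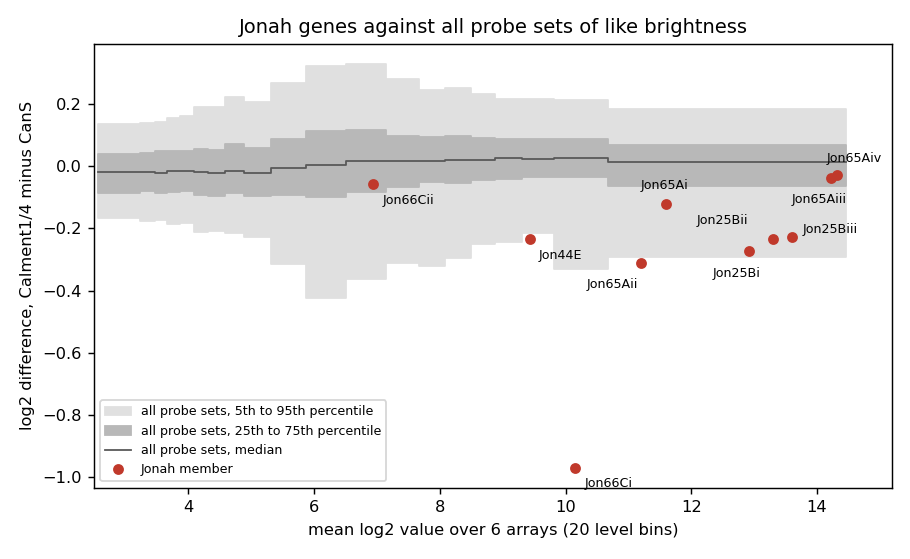
Log2 difference, Calment1/4 minus CanS, against the mean log2 value over the 6 arrays. Grey steps show the 5th to 95th and 25th to 75th percentiles of all probe sets in 20 bins of equal size by level, and red points the 10 Jonah genes. Jon66Ci lies far below the grey band, Jon44E and Jon65Aii lie just under its lower edge, and the other 7 lie inside it.

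Genes beside the Jonah clusters were then read, to see whether the lower levels extended along the chromosome. The 3 protein-coding genes on each side of the 4 loci make 24 genes, of which 21 had 25 probe sets of their own. None of the 25 passed the threshold (0.464% of all probe sets did), 15 were below 0 (49.8% of all), and their median was -0.03. The groups did not overlap in 2 of the 25 with Calment1/4 lower (6.27% of all), and in 3 with Calment1/4 higher (6.36% of all). Around 25B the direct neighbours jet and Marcal1 differed by -0.06 (SE 0.10) and -0.03 (SE 0.15), less than each Jonah gene between them. Whether they differ from the Jonah genes in this was not tested. Farther out, CG34125 was at -0.17 with groups that did not overlap, betaggt-I was at -0.12 and mRpL24 at 0.14, both with overlapping groups. At 65A the flanking protease genes yip7 (-0.0052), CG10477 (-0.08), CG10472 (-0.21) and CG6592 (0.15) had overlapping groups, and the adjacent CG6462 stood at 0.07. At 66C the most different of 4 probe sets for ImpE1, an ecdysone-inducible gene next to Jon66Ci, was higher in Calment1/4. Its mean was 4.60 in Calment1/4 against 4.01 in CanS, but it did not pass (0.60, adjusted p = 0.349 in limma). The other ImpE1 probe sets were at 0.21, -0.06 and -0.01, with dim group means between 3.30 and 3.76.

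**Figure D4:**
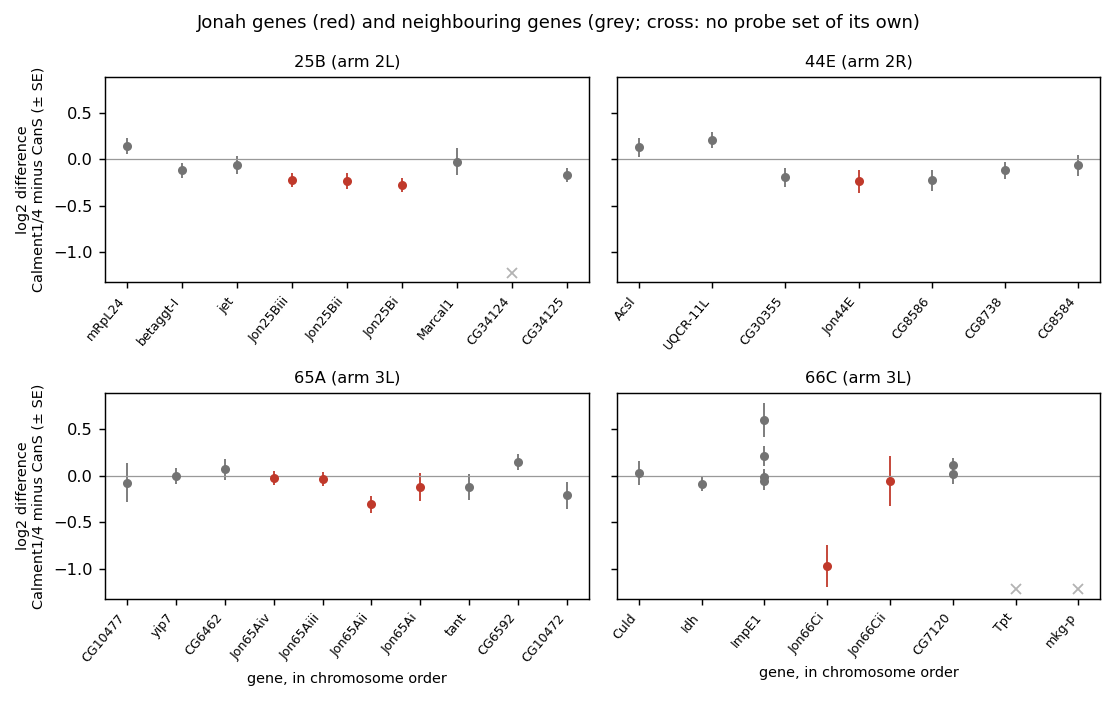
Log2 difference, Calment1/4 minus CanS, with its SE, for the Jonah genes (red) and up to 3 protein-coding genes on each side (grey) at the 4 loci, in chromosome order with no distances. A cross marks a gene with no probe set of its own, and a gene with several probe sets has several points. The 3 Jonah genes at 25B sit together between -0.27 and -0.23, and Jon66Ci stands alone at -0.97.

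Other members of the Jonah family did not share one direction. Of the 6 further Jonah genes listed, 3 had a probe set of their own and the others were not analysed here. Jon74E was higher in Calment1/4, with 13.46, 13.41 and 13.34, against 13.20, 13.17 and 12.99 in CanS, and the groups did not overlap (0.29, SE 0.09, adjusted p = 0.354 in limma). Jon99Ci was lower, with 12.00, 11.68 and 11.75 in Calment1/4, against 11.94, 12.46 and 12.68 in CanS, and the groups overlapped (-0.55, SE 0.18, adjusted p = 0.427 in limma). Jon99Fi differed by 0.08 (SE 0.09). None of the 3 passed.

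Related digestive genes gave a similar count of 0 calls in limma with all arrays, but a different pattern over the arrays. Over all probe sets 0.464% passed, 3.96% were lower at an unadjusted p under 0.05, and 49.8% were below 0. Of 10 trypsin genes 0 passed, 0 had an unadjusted p under 0.05, and 9 were below 0 with a median of -0.18. Those of smallest p were thetaTry (-0.19) and etaTry (-0.29). Of 16 other gut serine proteases 0 passed, 2 were lower at an unadjusted p under 0.05, and 11 were below 0 with a median of -0.13, led by CG18180 (-0.61) and CG18179 (-1.35). Of 14 probe sets for carbohydrate and fat digestion 0 passed with all arrays, 8 were lower at an unadjusted p under 0.05 and 11 were below 0, with a median of -0.96. Amyrel, an amylase-related gene, and tobi, an alpha-glucosidase gene, were at -0.53 and -1.98 (adjusted p = 0.0759 and 0.0853 in limma). Without Calment1/4 replicate 1 a total of 8 of these probe sets passed, all lower, and so did etaTry (-0.55), while no Jonah gene did. In that setting 281 of all 18769 probe sets passed. The 8 were tobi and the maltase genes Mal-A1, Mal-A2, Mal-A3, Mal-A4, Mal-A6, Mal-A7 and Mal-A8. The lipase genes mag and Lip3 were not among them, at 0.19 and -0.13 with all arrays.

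Gut lysozymes and midgut regulators had 0 calls each. Of 3 lysozyme genes, which digest bacteria in the gut, LysX was at -0.47 and LysP at 0.26. Of 18 probe sets for midgut regulators, 6 were below 0 and 3 were higher at an unadjusted p under 0.05, with a median of 0.08. Over all probe sets these shares were 49.8% and 3.71%. The TGF-beta ligand gene daw, which in flies acts in the repression of gut digestive enzymes by sugar, had a mean of 9.30 in Calment1/4 and 8.82 in CanS (0.48, adjusted p = 0.09996 in limma). The sugar-responsive repressor gene sug was at 0.26, with means of 8.80 in Calment1/4 and 8.54 in CanS. In both, the groups did not overlap. GATAe, a GATA factor that drives midgut genes, was at -0.14 (adjusted p = 0.955 in limma).

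Array by array, the Jonah genes and the other digestive genes parted mainly in Calment1/4 replicate 1. Around each gene's mean, the 10 Jonah genes averaged -0.24, -0.11 and -0.03 in Calment1/4, against 0.0013, 0.21 and 0.16 in CanS. The 10 trypsins averaged 0.29, -0.19 and -0.32 in Calment1/4, against -0.07, 0.09 and 0.19 in CanS. By these averages Calment1/4 replicate 1 was the lowest array for the Jonah genes and the highest for the trypsins. Not every gene followed. Jon25Biii, Jon44E, Jon65Aiii and Jon65Ai had their highest Calment1/4 value on that array, and epsilonTry had its lowest. For thetaTry, kappaTry and betaTry the highest array was a CanS array. The low Jonah mean of Calment1/4 replicate 1 came largely from the 66C pair, at -0.81, beside -0.14 at 25B and -0.08 at 65A. This difference between families was noticed in the data and was not tested. The summed linear signal of the 10 Jonah genes lay between 72391 and 74430 on the Calment1/4 arrays and between 80027 and 82820 on the CanS arrays. The Calment1/4 mean was 90.5% of the CanS mean, and 90.6% without both arrays that stand apart. That sum is weighted to the brightest members.

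**Figure D5:**
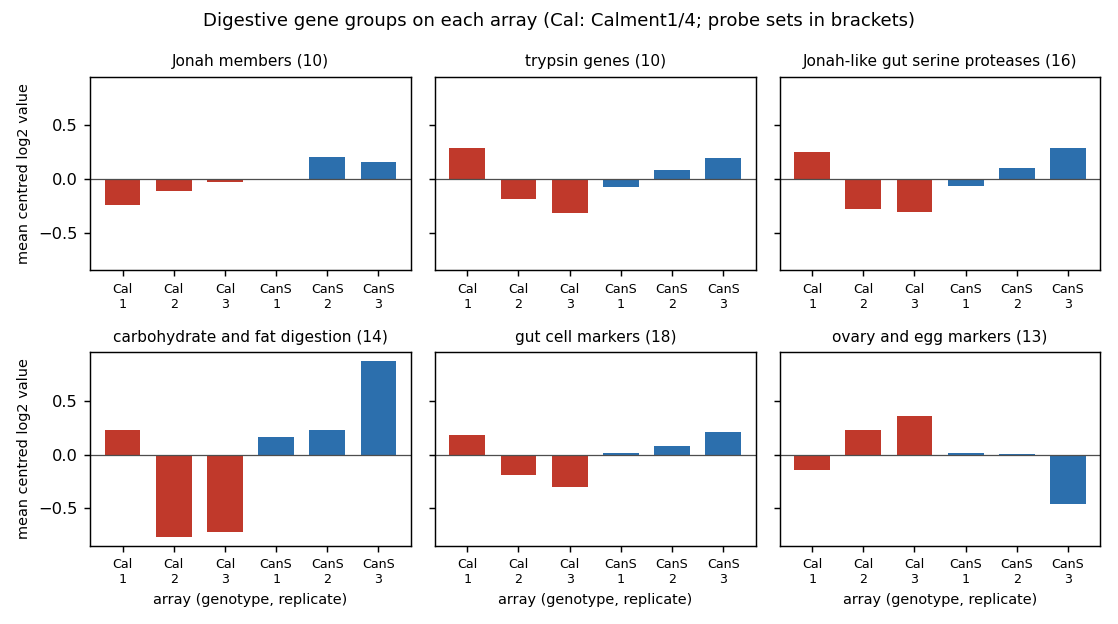
Mean over the probe sets of each group of the log2 value minus the gene's own mean, for each of the 6 arrays, Calment1/4 in red and CanS in blue. The Jonah genes are lowest in Calment1/4 replicate 1, at -0.24, where trypsins (0.29), other gut proteases (0.25) and gut markers (0.18) are above 0, and carbohydrate and fat digestion reaches 0.87 in CanS replicate 3.

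Markers of the tissues in a whole fly were read on the same arrays. Of 18 gut marker probe sets 0 passed and 14 were below 0 (49.8% of all probe sets were), with no marker listed at 0. Their summed linear signal was 11895 to 14126 in Calment1/4, against 14089 to 15504 in CanS. The gut markers of smallest p were Npc2e, a sterol-binding protein gene, at -1.31 (adjusted p = 0.0976 in limma), and the enteroendocrine hormone gene Dh31 at 0.40. Among fat body markers fit fell by 2.17, among blood cell markers Sr-CI, a scavenger receptor gene, fell by 1.24, and among ovary and egg markers the chorion gene Cp18 rose by 0.74. Each of these 3 lists held 1 call, in limma with all arrays, where 0.464% of all probe sets passed. The lists held 7 fat body, 7 blood cell and 13 ovary and egg probe sets. Of these, 6 fat body, 6 blood cell and 1 ovary and egg probe set were below 0 (49.8% of all). Each call was lost when some single arrays were left out, and under some other settings. That of fit was lost without Calment1/4 replicate 2, Calment1/4 replicate 3 or CanS replicate 1 (adjusted p up to 0.0829 in limma), and with trend and robust on in eBayes (adjusted p = 0.0714 in limma). That of Sr-CI was lost without Calment1/4 replicate 3 or any 1 CanS array (adjusted p up to 0.0894 in limma), and with the replicate block (adjusted p = 0.121 in limma). Cp18 passed no longer once replicate 2 or replicate 3 of either stock was dropped (largest adjusted p = 0.221 in limma), nor without both arrays that stand apart (0.62, adjusted p = 0.0750 in limma). The Cp18 call was also lost with the replicate block (adjusted p = 0.111 in limma) and without the dimmest 33.3% of probe sets (adjusted p = 0.0518 in limma). Summed fat body signal was 51971 to 60011 in Calment1/4, against 56040 to 67693 in CanS. Summed blood cell signal was 564 to 675 in Calment1/4, against 684 to 831 in CanS, without overlap. Summed ovary and egg signal was 59524 to 87362 in Calment1/4, against 45878 to 71280 in CanS. Muscle and head markers had 0 calls of 5 probe sets. The muscle genes Act88F, up and TpnC4 were at -0.55, -0.20 and -0.16, and the neuronal genes elav and nSyb at 0.13 each. Their sums were 7061 to 10380 in Calment1/4, against 6873 to 15298 in CanS, weighted to the bright muscle genes. Male markers had 0 calls of 12, with Mst84Dd at -0.17 and Mst57Dc at 0.16, and sums of 146 to 152 in Calment1/4, against 147 to 155 in CanS. The part of these markers in the Jonah differences was not tested, and in whole flies fewer gut cells and less RNA per gut cell cannot be told apart.

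The genes outside the group whose profile over the 6 arrays came closest to the mean Jonah profile were CG32548, Or42a, an odorant receptor gene, Tango2, CG7137 and CG5131. Closeness was the mean absolute distance between centred log2 values over the 6 arrays, from 0.03 for CG32548 to 0.04 for CG5131. Among the members themselves this distance was smallest for Jon65Aii (0.04) and Jon25Bi (0.06) and largest for Jon66Ci (0.36). Tango2 had 8.28, 8.51 and 8.45 in Calment1/4, against 8.58, 8.69 and 8.67 in CanS, a difference of -0.23 (adjusted p = 0.542 in limma). None of these 5 genes passed the threshold. CG32548 and Or42a were dim, with mean levels of 5.70 and 3.82 over the 6 arrays, below the lowest array median of 5.84.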

How the data were processed

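Each of the 6 one-colour Affymetrix arrays has 1 deposited value per probe set, an expression summary on the log2 scale. Tools named in the submitters' processing notes are affy 1.36.0, RMA and MAS5, with no role attached. How the authors made the log2 values from the scans is therefore unknown here. Values normalized between arrays cannot show a change shared by most transcripts.

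The 183 control probe sets were left out, which left 18769. Platform gene names were updated through gene identifiers to RefSeq symbols (Release 6 plus ISO1 MT), and 13544 of 13647 probe sets with 1 symbol matched. RefSeq gave chromosome arms and gene order only, since the array's build is not stated. Calment1/4 was set against CanS in limma (version 3.58.1, run under R 4.3.3) by a moderated two-sided test with genotype as the one term, and with Benjamini-Hochberg adjustment over all 18769 probe sets and a threshold of 0.05. The step was tested on simulated data. Members and lists were chosen with earlier results of these data known. In the list of other gut proteases 4 entries proved to be older names of members and were dropped, and 2 marker names had no match in RefSeq and are not analysed here. Every member was named, with at most 2 called genes per direction from each list, or the 2 of smallest p where no gene was called, the 5 genes of closest profile, and genes next to the clusters. GATAe, Jon99Fi, mag, Lip3, TpnC4, elav, nSyb, epsilonTry, kappaTry, betaTry and genes called under single alternatives were named after their values were seen. The array replicates are called biological in the labels, which do not say what was kept separate. The number of arrays limits the precision. The fit was repeated after a further quantile normalization, after median centring, without the dimmest 33.3% of probe sets, with trend and robust variance settings, with weights per array, with a replicate block, at a threshold of 0.01 and without each array in turn. Leaving out 2 arrays together was chosen after seeing the data. No pseudocount was needed. Figures used matplotlib 3.10.9.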

Additional observations from a re-analysis of the deposited data

How the results depend on the processing

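The count of 0 Jonah genes past the threshold held in limma under each alternative run but array weights, where 1 gene, Jon66Ci, passed (-0.84, adjusted p = 0.0470; adjusted p from 0.0765 to 0.448 elsewhere). Jon66Cii turned to 0.0776 with array weights and to 0.30 without both arrays that stand apart, and ran from -0.30 to 0.24 with single arrays left out. Jon65Ai was 0.0336 without both arrays and ran from -0.29 to 0.0431, and Jon65Aiv from -0.0515 to 0.0039, with single arrays left out. The other 7 members stayed below 0 in all alternatives. The median over the Jonah genes ran from -0.27 to -0.18 with single arrays left out. The cause of these shifts was not tested. The count of all probe sets called was 87, and it was 337 with array weights, 30 with the replicate block, 228 without both arrays, 38 at a threshold of 0.01 and 38 to 281 with single arrays left out. The replicate block changed no Jonah call but ended those of the markers Sr-CI and Cp18, and arrays with the same replicate number did not deviate together (correlations of -0.29, 0.20 and -0.43 for numbers 1, 2 and 3), so the numbers were not taken as pairs. Array weights called 2 other gut proteases (CG18179 and CG18180), 6 probe sets of carbohydrate and fat digestion and 1 midgut regulator (daw). Without both arrays 1 other gut protease (CG18179) and 8 of carbohydrate and fat digestion were called. With single arrays left out, 0 to 8 of carbohydrate and fat digestion and 0 to 1 trypsin (etaTry) were called. The lipase genes mag and Lip3 were called in none of these settings. Since 0 probe sets are shared by several Jonah genes, the alternative that would add shared probe sets could not be run. Detection calls were not used here, and Jon65Aiii and Jon65Aiv sit near the top of the scale.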
